A study of Mus musculus with 6 samples.

Results

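Tetraspanins are small membrane proteins that cross the membrane several times and gather receptors, integrins and proteases into patches of the cell surface and of vesicles. Most act through a partner: members of the TspanC8 subgroup bind the protease ADAM10 and carry it from the endoplasmic reticulum to the surface, Cd151 binds laminin-binding integrins, and Cd81 belongs to the B cell co-receptor. In blood cells they are known as surface markers of leukocytes and platelets, and Tspan33, also called Penumbra, is known from erythroid cells. The family was followed here as the genes with a Tspan symbol and a number, together with Cd37, Cd53, Cd63, Cd81, Cd82 and Cd151. These were 25 of the 19937 genes that had a probe set of their own. The rule uses gene names and no measured value, but the family was chosen with earlier results of these data known. Tspan7 was not analysed here.

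The tissue was the whole liver of FVB/NJ embryos at embryonic day 13.5, a stage at which most of its cells belong to the red cell lineage. Embryos came from time-mated Klf1 +/- mice. Samples from 3 wildtype embryos were set against 3 from Klf1-/- embryos, which carry a loss of the erythroid transcription factor gene Klf1; which part of the gene was altered is not stated. Each sample was hybridised to its own 1-colour Affymetrix array, so n = 3 per genotype throughout. Values are log2 of the deposited RMA intensity, and changes are knockout minus wildtype in log2 units, ± the standard error from limma. Genes whose p, adjusted over all genes by Benjamini-Hochberg, was under 0.05 were called. Nothing in the labels states whether embryos shared litters, and the p-values reflect the spread of these arrays, which may be partly technical.

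Whole livers hold several cell types, and fewer cells of a type cannot be told apart from less RNA per cell. Klf1 itself was at 10.58 to 10.76 in wildtype and 9.05 to 9.38 in knockout arrays. In the marker counts, lower and higher mean called, where 8.26% of all genes were lower and 10.8% higher. Of 8 measured erythroid markers 7 were lower, and their summed level ran from 15.59 to 15.71 in wildtype and from 14.67 to 14.79 in knockout. All 7 measured megakaryocyte markers were higher, with sums of 14.16 to 14.23 against 14.72 to 15.08, and so were 5 of 10 granulocyte markers (12.44 to 12.57 against 12.78 to 13.09). Of 10 macrophage markers 7 were lower (12.27 to 12.56 against 11.84 to 12.02). By estimate, called or not, all 8 erythroid and all 10 macrophage markers were negative and all 10 granulocyte markers positive. Over all 19937 genes 10916 estimates were negative and 9021 positive. The lymphoid, mast and basophil, endothelial, hepatoblast, and mesenchymal and mesothelial lists each held estimates of both signs. Among 9 lymphoid markers 1 was higher, among 7 mast and basophil markers 2, and among 8 endothelial markers 2. Of the hepatoblast markers, which include Alb and Afp, 2 of 9 were lower, and of the mesenchymal and mesothelial markers 1 of 10 was lower. The part of these shifts in the tetraspanin values was not tested. Xist was low and Y-linked genes were high in wildtype replicate 2 and knockout replicate 1, so each genotype held 1 male.

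Of the 25 tetraspanin genes, 6 fell and 4 rose in the knockout, and 15 were not called. Tspan8, Cd82, Tspan33, Tspan14, Tspan5 and Tspan15 were lower; Tspan18, Cd37, Tspan12 and Tspan32 were higher. Over all genes 19.1% were called, 10.8% higher and 8.26% lower. The median change of the family was -0.04, beside -0.02 over all genes. The groups of arrays did not overlap in 11 members, among them all 10 called; over all genes this held for 37.5%. Changes of at least 2-fold were called in 2 members, Tspan8 and Cd82, where 1.56% of all genes had one.

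**Figure D1:**
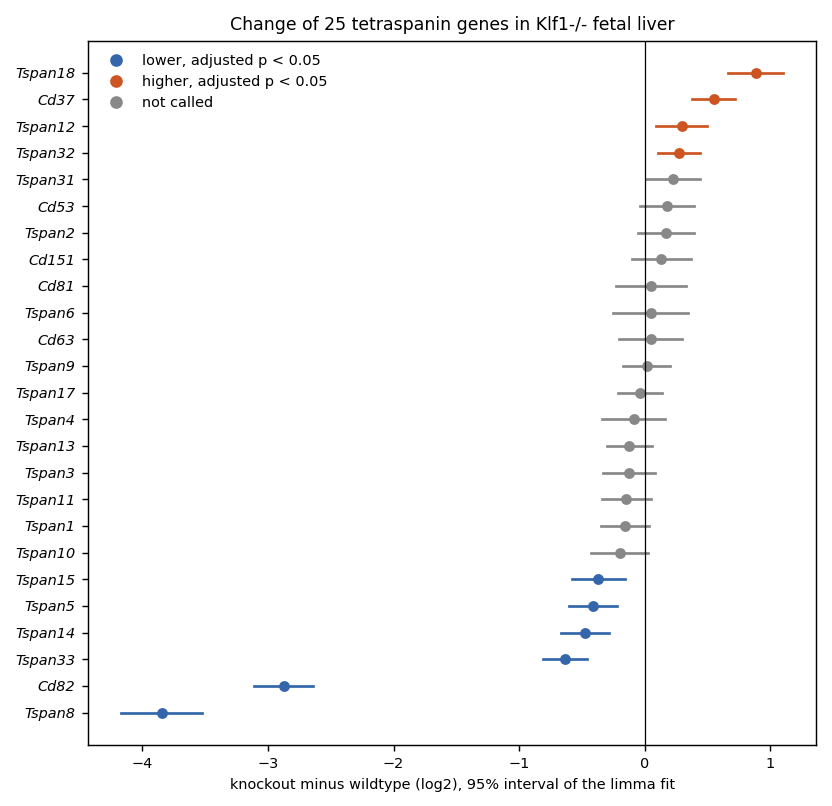
Change of each of the 25 tetraspanin genes (y axis) in knockout against wildtype livers (x axis, log2), with points for the limma estimate and lines for its 95% interval, from 3 arrays per genotype. Tspan8 at -3.85 and Cd82 at -2.88 stand far to the left of the others, whose estimates lie between -0.63 and 0.88.

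Tspan8, known from epithelia and from extracellular vesicles, had the largest fall of the family. It read 10.26, 10.20 and 10.61 in wildtype replicates 1, 2 and 3, and 6.48, 6.80 and 6.25 in the knockout replicates. Every knockout array was far below every wildtype array. The change was -3.85 ± 0.15, a 14.4-fold difference (limma adjusted p = 3.3e-08, 95% interval -4.17 to -3.53). The SD of its knockout values, 0.28, was the largest knockout SD among the members. These values were still above the 95th percentile of the olfactory receptor genes, taken as a guide to background, on all 3 arrays.

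Cd82, also called Kai1, is a tetraspanin of leukocytes and blood progenitors known as a suppressor of metastasis. Its values were 12.23, 12.30 and 12.51 in wildtype and 9.65, 9.34 and 9.42 in knockout livers. The lowest wildtype array lay above the highest knockout array by far more than the spread within either group. Cd82 fell by 2.88 ± 0.11, or 7.34-fold (adjusted p = 3.0e-08, 95% interval -3.11 to -2.64). With any 1 array left out, or any other processing tried, both genes were called, Tspan8 between -3.99 and -3.63 and Cd82 between -2.97 and -2.79.

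**Figure D2:**
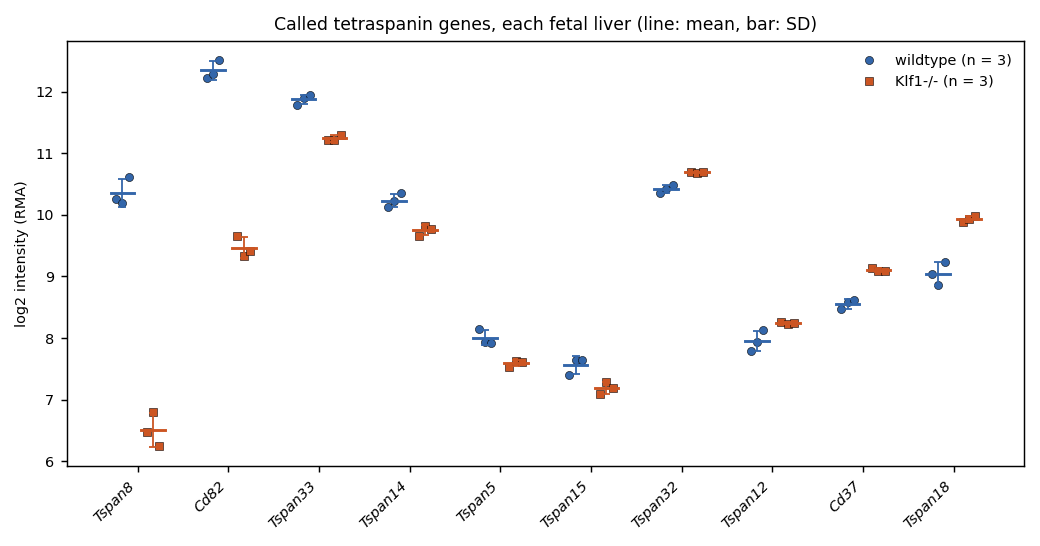
Log2 RMA intensity (y axis) of the 10 called tetraspanin genes (x axis) in each wildtype liver (circles) and each Klf1-/- liver (squares), with lines at the mean and bars for the SD of 3 arrays. The 2 genotypes do not overlap in any of the 10 genes; in Tspan12 the closest arrays are 8.12 and 8.22.

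Klf1 binds CACCC-type sequences in DNA. Promoter windows of members, from 250 bases before to 50 bases after an annotated start site, were therefore read from RefSeq and searched on both strands for CCNCNCCC, a loose form of such a sequence that also takes in runs of C or G. A start was found for 24 of the 25 members, Tspan18 having none, and these had 34 windows. At least 1 match stood in 23 of the 34 windows, or 67.6%, against 49.5% of all 32851 windows of that length. By gene, 5 of 6 lower, 2 of 3 higher and 10 of 15 uncalled members with a window had a match. A gene with several starts had several chances of a match, so the 49.5% per window is no background for these counts. A match is a description of the letters and not a binding site. The letters AGATAA, of the kind that Gata factors bind, were in 2 of the 34 windows, or 5.88%, and in 11.2% of all windows.

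The windows of the 2 members with the largest falls, of the TspanC8 member with the largest fall and of Cd37, which rose, are shown 5′ to 3′ on the strand of the gene (RefSeq, GRCm38.p6), with matches to CCNCNCCC or its reverse complement in capitals. Tspan8 lies at chr10:115817034-115817333 on the plus strand, Cd82 at chr2:93462453-93462752 on the minus strand, Tspan33 at chr6:29693964-29694263 on the plus strand and Cd37 at chr7:45238790-45239089 on the minus strand. For Cd82, which has 4 annotated starts, the window with most matches is given.
Tspan8: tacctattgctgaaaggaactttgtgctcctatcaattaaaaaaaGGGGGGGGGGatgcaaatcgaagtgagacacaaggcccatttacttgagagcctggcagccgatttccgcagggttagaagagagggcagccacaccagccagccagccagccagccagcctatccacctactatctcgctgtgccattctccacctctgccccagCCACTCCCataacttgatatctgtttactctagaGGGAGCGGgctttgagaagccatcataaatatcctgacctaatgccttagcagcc
Cd82: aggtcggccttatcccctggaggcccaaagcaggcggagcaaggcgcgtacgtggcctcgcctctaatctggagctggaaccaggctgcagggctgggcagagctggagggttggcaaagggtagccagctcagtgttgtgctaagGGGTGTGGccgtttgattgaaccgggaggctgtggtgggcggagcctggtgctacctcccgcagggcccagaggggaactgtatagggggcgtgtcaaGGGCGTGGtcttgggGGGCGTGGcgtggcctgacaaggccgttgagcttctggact
Tspan33: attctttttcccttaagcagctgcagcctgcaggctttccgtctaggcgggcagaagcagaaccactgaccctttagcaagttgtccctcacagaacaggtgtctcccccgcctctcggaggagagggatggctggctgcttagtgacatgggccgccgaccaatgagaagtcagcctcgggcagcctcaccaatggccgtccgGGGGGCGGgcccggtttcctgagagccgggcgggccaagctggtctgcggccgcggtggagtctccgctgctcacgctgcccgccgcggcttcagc
Cd37: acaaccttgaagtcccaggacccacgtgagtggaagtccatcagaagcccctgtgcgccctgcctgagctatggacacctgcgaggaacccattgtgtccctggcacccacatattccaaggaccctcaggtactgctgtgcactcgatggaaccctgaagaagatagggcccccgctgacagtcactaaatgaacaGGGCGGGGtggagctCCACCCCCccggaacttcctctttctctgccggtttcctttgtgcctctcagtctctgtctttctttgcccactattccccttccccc
Tspan8 had 5 matches, 3 of them overlapping in 1 run of G far upstream and 2 near the start, at positions -39 and -5. Cd82 had 3 matches, at -104, -6 and 9, and 2 of its other 3 windows had 0. Tspan33 had 1 match, at -46, and Cd37 had 2, at -53 and -38. The lower and the higher gene thus both carried the letters.

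Of the 6 TspanC8 genes 4 fell, where 8.26% of all genes did, and Tspan10 and Tspan17 were not called. The subgroup was listed with earlier results of these data known, so its count describes these genes and is not a test. All 6 estimates were negative, as were 10916 of the 19937 over all genes (Tspan17 turned to 0.010 without knockout replicate 1), and the subgroup's median was -0.39 beside -0.02 over all genes. Tspan33 read 11.79, 11.90 and 11.94 in wildtype and 11.21, 11.22 and 11.30 in knockout livers, with no overlap. It fell by 0.63 ± 0.08 (adjusted p = 0.00025).

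Tspan14, a partner that brings ADAM10 to the surface of many cell types, read 10.13, 10.22 and 10.35 in wildtype and 9.66, 9.82 and 9.78 in knockout livers. Again no knockout array reached the lowest wildtype array, and Tspan14 fell by 0.48 ± 0.09 (adjusted p = 0.0031). Tspan5 read 8.14, 7.94 and 7.93 against 7.53, 7.63 and 7.61. Its groups were 0.30 apart at the closest, the high wildtype value being replicate 1, and it fell by 0.41 ± 0.09 (adjusted p = 0.0067).

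Tspan15, which steers ADAM10 towards N-cadherin, read 7.39, 7.64 and 7.65 in wildtype and 7.10, 7.29 and 7.20 in knockout livers. The groups did not overlap, but wildtype replicate 1 lay 0.11 above the highest knockout array. Tspan15 fell by 0.37 ± 0.09 (adjusted p = 0.0203), a call that was lost when wildtype replicate 2, wildtype replicate 3, knockout replicate 1 or knockout replicate 3 was left out (adjusted p from 0.0637 to 0.0747).

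Tspan10, known from pigmented cells of the eye, and Tspan17 were not called. Tspan10 read 6.29, 6.60 and 6.35 against 6.17, 6.34 and 6.12, and Tspan17 read 6.54, 6.50 and 6.46 against 6.36, 6.50 and 6.53; both pairs of groups overlapped. Their changes were -0.20 (95% interval -0.42 to 0.02) and -0.04 (-0.21 to 0.14), and the measured change of Tspan33 lay outside both intervals. Both genes were dim, however, with wildtype means of 6.41 and 6.50. The background guide was 5.93, 5.80 and 5.86 on the knockout arrays. A fall as large as that of Tspan33 would bring either gene near that guide, where it may not be read in full. The intervals therefore cannot exclude such a fall in the RNA.

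Adam10, the protease that TspanC8 proteins carry, fell as well. It read 11.94, 12.01 and 12.17 in wildtype and 10.83, 10.96 and 10.89 in knockout livers, and the groups were far apart. The change was -1.15 ± 0.09, a 2.21-fold difference (adjusted p = 6.5e-06). The related protease gene Adam17, which is not a TspanC8 client, was at -0.13 ± 0.08 and not called. All its knockout arrays were lower than wildtype, but the groups were only 0.04 apart. The ADAM10 substrates Notch1 and Notch2, at 0.21 ± 0.10 and 0.22 ± 0.09, were not called either, though the groups of Notch2 did not overlap. In the list of proteases and substrates 1 of 6 measured genes fell and 0 rose, where 8.26% of all genes fell and 10.8% rose.

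**Figure D3:**
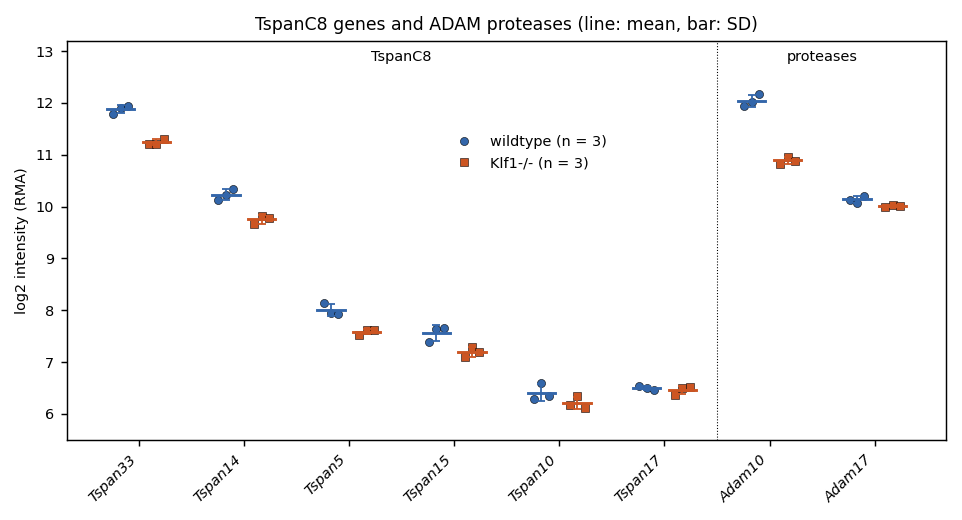
Log2 RMA intensity (y axis) of the 6 TspanC8 genes and of Adam10 and Adam17 (x axis) in each wildtype (circles) and Klf1-/- liver (squares), with lines at the mean and bars for the SD of 3 arrays. Tspan33, Tspan14, Tspan5, Tspan15, Adam10 and Adam17 are lower in all 3 knockout livers, while Tspan10 and Tspan17 overlap. The gap is widest in Adam10 and, at 0.04, narrowest in Adam17, a gene that was not called.

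Of the leukocyte tetraspanins Cd82 fell, 2 rose and 1 was not called, where 8.26% of all genes fell and 10.8% rose. This subgroup too was listed with earlier results of these data known, so its count is not a test. Cd37, a tetraspanin of mature B cells and other leukocytes, read 8.47, 8.58 and 8.62 in wildtype and 9.14, 9.08 and 9.09 in knockout livers. The knockout arrays were close together and all above wildtype, and Cd37 rose by 0.55 ± 0.08 (adjusted p = 0.00063).

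Tspan32, a tetraspanin of blood cells that acts in T cells and platelets, read 10.35, 10.43 and 10.48 against 10.70, 10.68 and 10.69. The shift was small and the groups were separate. Tspan32 rose by 0.27 ± 0.07 (adjusted p = 0.0270), but 8 of 18 alternatives did not call it, among them centring on the 75th percentile or on housekeeping genes and leaving out any 1 array other than wildtype replicate 3 (0.21 to 0.30 over all of them).

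Cd53, found on nearly all leukocytes, read 9.24, 9.39 and 9.37 against 9.52, 9.68 and 9.34, with knockout replicate 3 inside the wildtype range. Its change of 0.18 ± 0.10 was not called (95% interval -0.04 to 0.39). The lymphoid markers had estimates of both signs, from -0.33 to 0.71, and 1 of 9 was called, higher. Their sums overlapped, with 9.49 to 9.58 in wildtype and 9.56 to 9.69 in knockout, while the granulocyte and megakaryocyte sums were higher in every knockout array, as given above.

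Tspan18, which binds the calcium channel Orai1 in endothelial cells, had the largest rise. It read 9.03, 8.86 and 9.24 in wildtype and 9.88, 9.93 and 9.97 in knockout livers. The wildtype arrays were spread over more than the knockout arrays, and the groups were well apart. Tspan18 rose by 0.88 ± 0.10, or 1.85-fold (adjusted p = 0.00012), and was called under every alternative tried. Orai1 was not called. The summed endothelial markers overlapped between genotypes, with 11.94 to 12.43 in wildtype and 12.11 to 12.35 in knockout. Of these 8 markers 7 had positive estimates, where 9021 of 19937 genes did, and 2 were called higher. The other marker, Lyve1, was at -0.48 and not called. The part of endothelial cells in the rise of Tspan18 was not tested.

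Tspan18 and Cd82 are next to each other on chromosome 2 in the RefSeq gene order, with no protein-coding gene between them, and they went opposite ways. On the Tspan18 side Trp53i11 rose by 0.40 ± 0.10 and the zinc-finger gene Prdm11 rose by 0.77 ± 0.08. On the Cd82 side Alx4, at -0.10 ± 0.11, and Ext2, at -0.09 ± 0.09, were not called. The rise of Trp53i11 (adjusted p = 0.0204) was lost in several alternatives, 75th percentile and housekeeping centring among them (adjusted p = 0.0652 and 0.0836). These neighbours were looked up after the opposite changes of the pair had been seen.

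**Figure D4:**
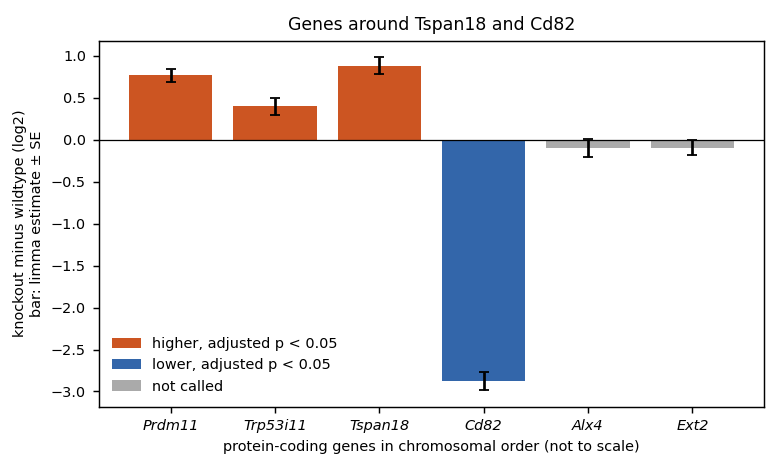
Change in knockout against wildtype livers (y axis, log2, bars for the limma estimate and lines for its SE, 3 arrays per genotype) of 6 protein-coding genes in chromosomal order (x axis, not to scale). The changes run from 0.77 in Prdm11 and 0.88 in Tspan18 to -2.88 in Cd82 and -0.10 in Alx4.

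The 10 called members had 19 measured immediate neighbours, of which 3 were called: Tspan18 and Cd82, each the neighbour of the other, and Trp53i11. The immediate neighbours of Tspan8, Tspan33, Tspan14, Tspan5, Tspan15, Cd37, Tspan12 and Tspan32 that were measured were not called; over all genes 19.1% were. Of 19 measured genes 2 places away from a called member 3 were called: Trp53i11 and Prdm11, as above, and Dkkl1, which fell by 0.68 ± 0.10 beside the higher Cd37. Around the 15 uncalled members 3 of 28 measured immediate neighbours and 10 of 29 genes 2 places away were called. Tspan32 and Cd81 are also adjacent, on chromosome 7, and of these Tspan32 rose while Cd81 was not called; the difference between them was not tested.

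Tspan12, which enhances Norrin signalling through the receptor Fzd4, read 7.79, 7.93 and 8.12 in wildtype and 8.27, 8.22 and 8.24 in knockout livers. The knockout arrays nearly coincided, just above the highest wildtype array. Tspan12 rose by 0.29 ± 0.09, at the edge of the threshold (adjusted p = 0.0498), and 11 of 18 alternatives did not call it (adjusted p up to 0.142). Fzd4, at -0.23 ± 0.10, was not called. Tspan31, a small gene beside Cdk4, read 11.02, 11.22 and 11.38 against 11.42, 11.48 and 11.40; the groups did not overlap, yet its change of 0.23 ± 0.10 was not called (adjusted p = 0.132), except without wildtype replicate 3 (adjusted p = 0.0449).

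The integrin and vesicle tetraspanins other than Tspan8 were not called. Cd63, the lysosome and granule member, read 8.92, 9.21 and 9.36 in wildtype and 9.14, 9.16 and 9.34 in knockout livers. Cd81 read 11.46, 11.74 and 12.00 against 11.66, 11.78 and 11.90. In both genes the knockout arrays lay wholly inside the wildtype range.

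Their changes were 0.05 ± 0.11 and 0.05 ± 0.13, with 95% intervals of -0.20 to 0.30 and -0.23 to 0.33. Cd151, the partner of laminin-binding integrins, read 8.45, 8.42 and 8.71 against 8.50, 8.66 and 8.81. The groups overlapped, and its change of 0.13 ± 0.11 was not called (95% interval -0.10 to 0.37). Tspan9, a platelet tetraspanin, was at 0.01 ± 0.09, Tspan4, known from migrasomes, at -0.09 ± 0.11 and Tspan2, known from myelin-forming cells, at 0.17 ± 0.10. The changes of Cd63, Cd81 and Tspan9 turned negative with 75th percentile centring.

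The integrin genes gave 3 rises and 2 falls among 11, where 10.8% of all genes rose and 8.26% fell. Itga2b and Itgb3, which make the platelet fibrinogen receptor and stand among the megakaryocyte markers, rose by 1.05 ± 0.12 and 0.63 ± 0.10, and the laminin receptor subunit Itga6 rose by 0.48 ± 0.10. Itga4 fell by 0.45 ± 0.08. Itgb7 fell by 0.37 ± 0.10 (adjusted p = 0.0244), a call lost when any 1 array other than wildtype replicate 1 was left out. The knockout values of Itgb7, 5.94, 6.07 and 6.03, were close to the background guide, 5.93, 5.80 and 5.86 on those arrays. The common subunit Itgb1 was at 0.10 ± 0.09 and not called. Of the Ig-domain partners Igsf3 rose by 0.38 ± 0.09 and Igsf8 was at -0.05 ± 0.08. None of 8 receptors and channels and none of 3 vesicle sorting genes was called by limma, with 0 and 1 of them at an unadjusted p under 0.05. Over all genes 6636 of 19937 had an unadjusted limma p under 0.05. Among the receptors and channels Cr2, Epcam and Ndp were above the background guide on no array, so a change in them could not be judged. They stay in the counts that follow. Over all 31 measured partners 4 rose and 3 fell, 7 in all where 19.1% of all genes were called, so the count was near the background. Their median was -0.01, beside -0.02 over all genes.

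The remaining members were Tspan1, Tspan3, Tspan6, Tspan11 and Tspan13, of which none was called by limma or at an unadjusted p under 0.05. Over all genes 6636 of 19937 had an unadjusted limma p under 0.05. The changes of these members lay between -0.16 in Tspan1 and 0.05 in Tspan6. Tspan6 is on the X chromosome; it read 9.53 and 9.36 in the males, wildtype replicate 2 and knockout replicate 1, within the 9.15 to 9.70 of the other wildtype arrays. Over all 15 uncalled members the estimates ran from -0.20 to 0.23, and the 95% intervals reached from -0.42 to 0.44. Tspan1 alone was not above the background guide on all arrays of either genotype.

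Of the tetraspanins without a Tspan symbol that the rule leaves out, Cd9, a platelet and progenitor marker close to Cd81, read 8.86, 9.00 and 9.07 in wildtype and 9.20, 9.47 and 9.57 in knockout livers. The groups did not overlap. It rose by 0.44 ± 0.11 (adjusted p = 0.0156), and the call was lost without knockout replicate 2 or 3 (adjusted p = 0.0571 and 0.0704). The bladder gene Upk1b fell by 0.27 ± 0.08 (adjusted p = 0.0457), a call lost in many alternatives, and Upk1a, Prph2 and Rom1 were not called. The knockout values of Upk1b, 6.04, 5.93 and 6.01, were close to the background guide, 5.93, 5.80 and 5.86 on those arrays.

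Many members leaned the same way on single wildtype arrays. In wildtype replicate 1 only 4 of the 25 members were above their own wildtype mean, and in wildtype replicate 3 there were 19. The mean deviations were -0.10 and 0.10, where all genes averaged -0.0032 and -0.0080. Deviations of a gene cancel out within a genotype, so the low replicate 1 and the high replicate 3 are not separate observations. The share of all genes above their own mean was not counted. Tspan6, Cd81, Tspan4 and Cd63 had the largest wildtype SDs, and all 4 were lowest in replicate 1 and highest in replicate 3. The mesenchymal and mesothelial marker sum was 11.78 in wildtype replicate 1 and 12.43 in replicate 3, and the endothelial sum was 11.96 and 12.43. Their part in the spread was not tested. In knockout arrays the mean deviations of the members lay between -0.03 and 0.02. The mean SD of the members was 0.14 in wildtype and 0.10 in knockout, beside 0.12 and 0.10 over all genes.

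**Figure D5:**
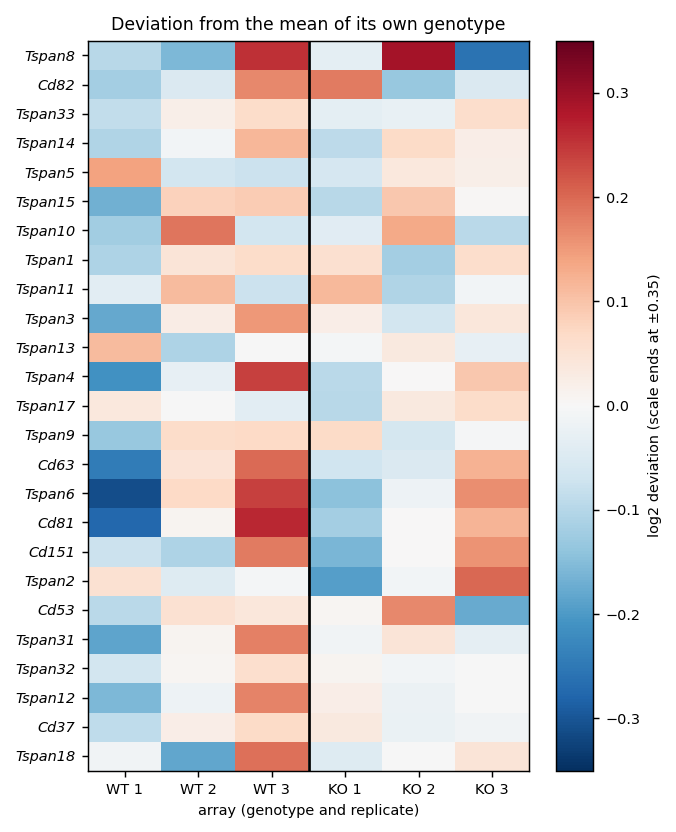
Deviation of each tetraspanin gene (rows) from the mean of its own genotype (colour, log2) on each array (columns), with 3 arrays per genotype. Wildtype replicate 1 is below the mean in most rows and wildtype replicate 3 above it, while Tspan5, Tspan13, Tspan17 and Tspan2 are above their mean in replicate 1.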

How the data were processed

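Each of 6 fetal liver RNAs was hybridised to 1 Affymetrix Mouse Gene array. Per the submitters' processing notes, the authors made the deposited probe set intensities with RMA in Affymetrix Power Tools 1.8.6, which corrects background and equalises the arrays, so a change in total RNA cannot be seen; the genome build is not given in the sources used here. Median intensity per array lay between 104.5 and 109.8, on a linear scale, and log2 was taken. The number of arrays limits the precision. Of 34760 probe sets 21640 had 1 gene in the platform's annotation, and the brightest per gene gave 19937 genes; each of the 25 members had 1 such probe set, and all 25 symbols equalled those of the GRCm38.p6 table, which was used for names and gene order. No filter on dim genes was applied. The genotypes were compared gene by gene in R 4.3.3 with limma 3.58.1 (lmFit, then eBayes; genotype alone in the model; 2-sided). P-values were adjusted by Benjamini-Hochberg across the whole table, and the fit was tested on simulated data. An exact permutation test of 3 against 3 cannot go below p = 0.1. Marker sums are log2 of summed linear intensities. Members and lists were chosen with earlier results of these data known. All members could be named; values on every array were to be given for called members, members with Cd names and TspanC8 genes, and of the partners the called ones plus Adam10, Itgb1, Itga6 and Igsf8. Adam17, Notch1, Notch2, Orai1, Fzd4, Cr2, Epcam, Ndp, Tspan31 and the neighbours of members were named after their values were seen.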

Additional observations from a re-analysis of the deposited data

How the results depend on the processing

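In all 18 alternatives were run: 3 other scalings (quantile, 75th percentile, housekeeping genes), 2 filters on dim genes, averaging or separate testing of probe sets, trend with robust eBayes, array weights, a replicate block, a sex covariate, 16 added before log2, and each array left out. Tspan8, Cd82, Tspan33, Tspan14, Tspan5, Cd37 and Tspan18 were called under each of them. The falls among tetraspanins numbered 5 or 6. The rises numbered 2 in place of 4 with 75th percentile centring, with housekeeping centring and with the replicate block, and 2 to 5 with 1 array left out. Tspan12 and Tspan32 are the rises lost under both centrings. Whether the replicate numbers pair the samples is not stated in the labels. Deviations of the same-numbered arrays correlated at -0.16, -0.22 and 0.18 over all genes, and the block gave 3498 calls in place of 3809. The largest correlation between genotypes, 0.33, was that of wildtype replicate 2 and knockout replicate 1, the males. Deviations from a mean of 3 arrays cancel out within a genotype, so these correlations cannot decide whether samples were paired. With 1 array left out all genes gave 2409 to 3749 calls, 2409 without knockout replicate 2 and 2414 without knockout replicate 3. Small uncalled changes turned sign. Tspan9 was at -0.055 with quantile normalization, -0.050 with 75th percentile centring, -0.014 with housekeeping centring and -0.0026 with array weights. Cd63, Cd81 and Tspan6 were at -0.018, -0.015 and -0.016 with 75th percentile centring. With 1 array left out Tspan9 ran from -0.052 to 0.050, Cd63 from -0.076 to 0.15, Cd81 from -0.087 to 0.18, Tspan6 from -0.11 to 0.17, Tspan4 from -0.20 to 0.031 and Tspan17 from -0.071 to 0.010. The cause was not tested. The files carry no detection call, so for dim genes the olfactory receptor guide alone marks background.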
